A study of Mus with 12 samples.

Results

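The 32 genes described here encode glucose transporters, the glycolytic enzymes and their isoforms, the enzymes and transporters that handle lactate and pyruvate, and a set of genes linked to the hypoxia response. They were chosen by gene symbol, from a list of metabolic genes, out of 55487 mouse genes in the deposited expression table. Their values were no criterion, but earlier results of these data were known when the list was made. All 32 were found, and all 32 were among the 13396 genes that reached 1 FPKM (sequenced fragments relative to transcript length in kilobases and to the mapped total of the library) in at least 2 libraries and were tested. Aldoa has a second entry in the table, at 0.05 to 0.53 FPKM, which was not tested.

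RNA of activated CD8 T cells was sequenced in bulk from 3 genotypes of mice on a C57BL/6 background: wild type (WT), mice without the AP-1 family factor BATF (BATF-KO), and mice whose T cells lack RARα, a receptor for retinoic acid (RARα-KO). The RARα-KO animals combine floxed Rara alleles with Cre recombinase under the distal Lck promoter, which is active in mature T cells, and the controls of the study are described as C57BL/6 and dLck-Cre mice without saying which gave these WT libraries. Spleen cells labelled as naive were stimulated for 20 h by plate-bound anti-CD3 at 1 µg/ml, with IL-2 at 100 U/ml and anti-CD28 at 2 µg/ml in the medium. The serum, 10% of the medium, was charcoal-stripped and so poor in retinoids, and titles ending in RA were taken to mean that retinoic acid (RA) had been added, at 15 nM. There were thus 6 groups (WT, BATF-KO and RARα-KO, each without and with RA) of 2 libraries, and as no source says that replicates are separate mice, p-values measure only the spread between these libraries, which may be technical.

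Glycolysis breaks glucose down to pyruvate in the cytosol, and activated T cells are known to raise it on leaving the resting state, converting much of the pyruvate to lactate. Hypoxia-inducible factor 1α (HIF-1α, encoded by Hif1a) is a transcription factor that is degraded when oxygen is plentiful and otherwise turns on many glycolytic genes; in T cells its messenger and protein also increase after antigen receptor signals. MYC is the other well-known activator of these genes during T cell activation. The 32 genes were therefore grouped by role, as 10 genes of glucose uptake and the first steps, 9 genes of the steps from aldolase to pyruvate kinase, 5 genes that decide the fate of lactate and pyruvate, and 8 hypoxia-linked genes.

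The labels were checked on the targeted genes before the comparisons. Batf was at 4.05 to 4.90 FPKM in the 4 BATF-KO libraries and at 19.1 to 34.05 FPKM in the other 8. Rara was at 11.09 to 17.86 FPKM in all groups, RARα-KO included. That is no check of the label, because the study states that T cells of this mouse line still make a Rara transcript lacking an exon. The Cre entry of the table was at 79.3 to 824 FPKM in RARα-KO cells and at most 0.13 FPKM elsewhere. In the WT libraries it was at most 0.07 FPKM, whichever strain gave them. Comparisons of RARα-KO with WT thus also set cells with Cre RNA against cells nearly without it. Loss of RARα and presence of Cre cannot be told apart there. All 10 CD8 T cell markers were detected in every library, with sums of 2964 to 3769 FPKM in RARα-KO cells and 3774 to 4785 FPKM in the other genotypes. Without RA all 10 were below WT in RARα-KO cells, with 1 called lower, compared with 0.515% of all genes. The summed B cell markers ran from 914 to 1143 FPKM in RARα-KO cells and from 269 to 470 FPKM in the other genotypes. The summed NK and innate-like markers ran from 179 to 206 against 46.1 to 122 FPKM, with none of either list at 0. Of these, 11 of 12 and 5 of 11 were called higher in RARα-KO than in WT without RA, compared with 2.78% of all genes. Of 10 myeloid markers, 3 were called higher in RARα-KO than in WT without RA and 5 with RA, compared with 2.78% and 3.24% of all genes. The summed CD4 T cell markers ran from 38.0 to 46.7 FPKM in RARα-KO cells and from 32.5 to 52.6 FPKM in the other genotypes. These 5 markers had 5 calls over all comparisons, beside 1684 higher and 431 lower calls over 13396 genes. Erythroid and platelet markers summed to 149 to 512 FPKM in the 6 replicate 1 libraries and to 13.9 to 31.1 FPKM in the 6 replicate 2 libraries, with up to 3 of them at 0. The files give no counts, so the depth behind a value is unknown, and 12085 to 12486 genes reached 1 FPKM in a library. In these bulk libraries fewer cells of a type and less RNA per cell cannot be told apart.

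The 32 genes spanned nearly 3 orders of magnitude in level per transcript length, and together took 0.520% to 0.853% of all FPKM in a library. Gapdh (glyceraldehyde-3-phosphate dehydrogenase), Mif (macrophage migration inhibitory factor, a secreted cytokine) and Ldha (lactate dehydrogenase A) were the most abundant, with means of 1135, 923 and 726 FPKM over the 12 libraries and ranks of 111, 121 and 149 among the 13396 genes. Of the 32 genes, 8 were among the 500 most abundant, and all of these but Mif and Ldha encode enzymes of the glycolytic chain itself (Gapdh, Aldoa, Pkm, Gpi1, Eno1 and Pgk1). At the other end, Egln3, Aldoc, Slc16a3, Eno2 and Pfkfb4 had means of 2.10, 2.40, 2.85, 3.22 and 3.55 FPKM, and 9 of the 32 genes were below the median gene. In the plot of levels by library, the symbols of a gene span more between replicate numbers than between genotypes for most of the abundant enzymes.

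**Figure D1:**
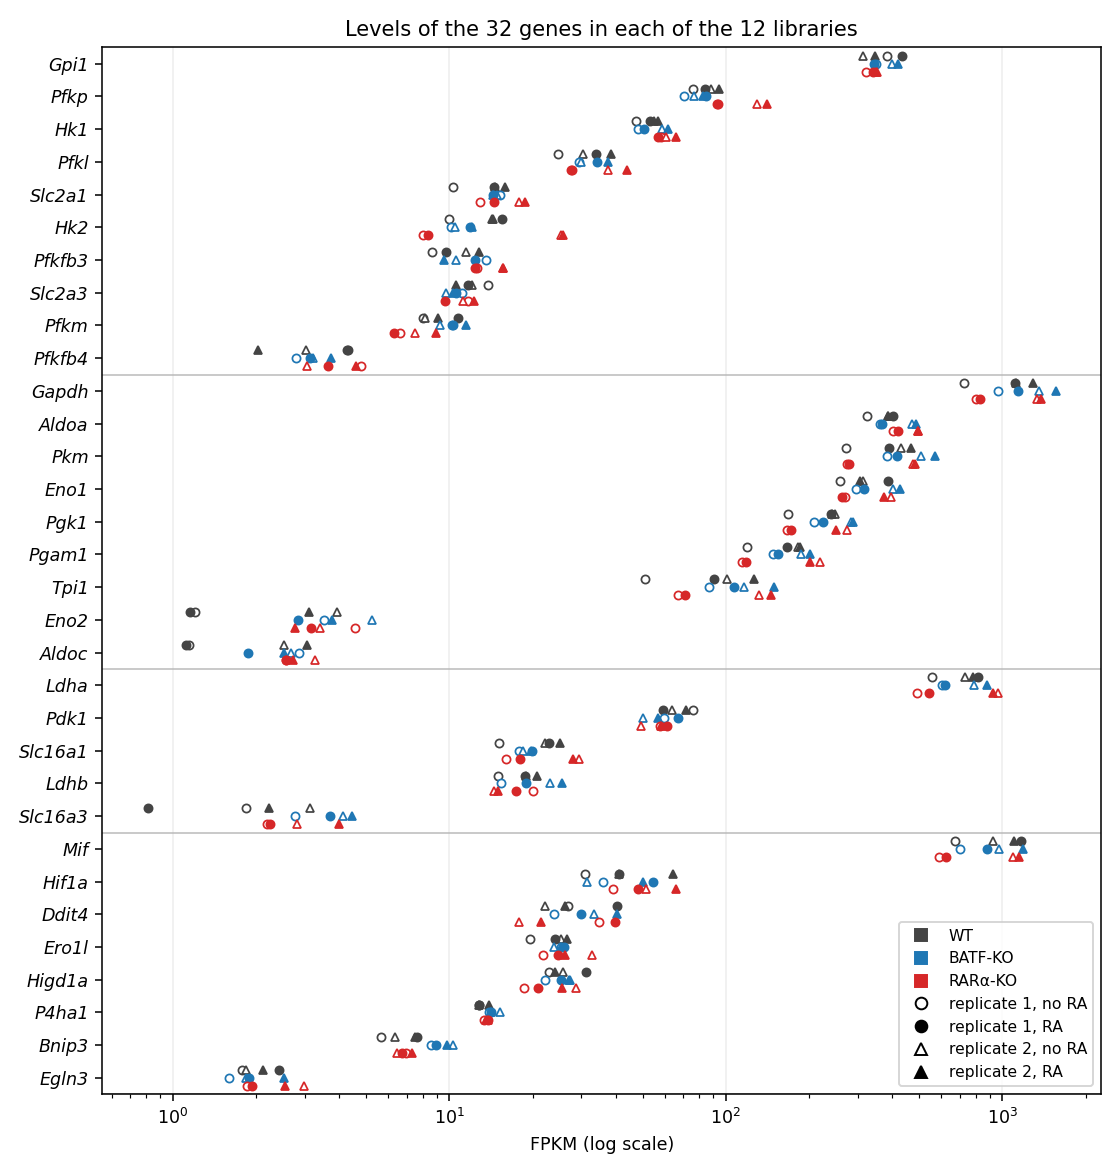
FPKM of each of the 32 genes (rows, grouped by role and separated by lines) in each of the 12 libraries on a log axis, with genotype as colour, replicate number as symbol shape and RA as filled symbols. The abundant enzymes sit between about Tpi1 (mean 103.7 FPKM) and Gapdh (mean 1135 FPKM), and the WT replicate 1 library without RA is the lowest of the 12 for 14 genes.

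RNA was present for both glucose transporters in the list, GLUT1 (Slc2a1) and GLUT3 (Slc2a3), which carry glucose across the plasma membrane. Slc2a1 was at 10.29 and 14.59 FPKM in WT, 14.52 and 15.86 in WT with RA, 15.20 and 14.85 in BATF-KO, 14.41 and 14.32 in BATF-KO with RA, 12.95 and 17.80 in RARα-KO, and 14.46 and 18.73 in RARα-KO with RA. It took 42.7% to 61.4% of the FPKM of this pair, and the groups overlapped, the WT replicate 1 library being the lowest of all. Slc2a3 stayed within 9.61 to 13.82 FPKM. Hexokinase traps glucose in the cell as glucose-6-phosphate. Its RNA was mostly that of Hk1, with 47.41 and 54.73 FPKM in WT, 53.25 and 56.96 in WT with RA, 48.07 and 58.59 in BATF-KO, 50.66 and 61.84 in BATF-KO with RA, 58.14 and 60.90 in RARα-KO, and 56.83 and 66.08 in RARα-KO with RA. Hk1 took 68.5% to 84.8% of hexokinase FPKM.

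Hk2, the hexokinase isoform best known as inducible, had the largest error of the 32 genes. Its FPKM were 9.93 and 14.26 in WT, 15.45 and 14.33 in WT with RA, 10.11 and 10.45 in BATF-KO, 11.83 and 12.03 in BATF-KO with RA, 8.01 and 25.38 in RARα-KO, and 8.35 and 25.66 in RARα-KO with RA. The RARα-KO libraries thus held both the lowest and the highest values of all 12, split by replicate number and not by RA. The Cre entry split the same 4 libraries the other way, at 824 and 681 FPKM in the replicate 1 libraries without and with RA and at 79.3 and 86.7 FPKM in the replicate 2 libraries; whether that difference has a part in the Hk2 values was not tested.

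RNA for phosphofructokinase, the committed step of glycolysis, was mostly that of the platelet isoform Pfkp, at 62.7% to 74.2% of the FPKM of the 3 isoform genes. Pfkp was at 76.03 and 88.60 FPKM in WT, 84.24 and 94.06 in WT with RA, 70.45 and 76.66 in BATF-KO, 84.39 and 82.43 in BATF-KO with RA, 93.74 and 129.44 in RARα-KO, and 92.64 and 140.48 in RARα-KO with RA. The muscle isoform Pfkm was between 6.32 and 8.92 FPKM in RARα-KO cells and between 7.99 and 11.52 FPKM otherwise, and the liver isoform Pfkl (GRCm38, chr10:77986947-78009807) at 24.76 to 43.70 FPKM. Pfkfb3, which makes fructose-2,6-bisphosphate, the activator of phosphofructokinase, was the most abundant of its 4-gene family (39.3% to 58.3% of the FPKM). Its FPKM values were 8.65 and 11.44 in WT, 9.71 and 12.78 in WT with RA, 13.60 and 10.56 in BATF-KO, 12.39 and 9.52 in BATF-KO with RA, 12.62 and 15.68 in RARα-KO, and 12.34 and 15.57 in RARα-KO with RA, whereas Pfkfb4 was at 2.03 to 4.80 FPKM. Gpi1, the isomerase between hexokinase and phosphofructokinase, was at 383.97 and 312.37 FPKM in WT, 431.93 and 346.48 in WT with RA, 350.11 and 397.39 in BATF-KO, 344.41 and 418.25 in BATF-KO with RA, 319.93 and 348.73 in RARα-KO, and 340.84 and 350.89 in RARα-KO with RA. Its higher replicate was number 1 in WT and number 2 in both knockouts.

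The 9 genes from aldolase to pyruvate kinase encode the splitting of the six-carbon sugar and the steps that yield ATP and NADH. Gapdh was at 723.74 and 1124.40 FPKM in WT, 1115.02 and 1294.96 in WT with RA, 963.80 and 1356.37 in BATF-KO, 1138.14 and 1559.81 in BATF-KO with RA, 802.03 and 1340.36 in RARα-KO, and 829.90 and 1376.08 in RARα-KO with RA. The replicate 2 library was above replicate 1 in each of the 6 groups, and so it was for Tpi1 (triosephosphate isomerase), Pgk1 (phosphoglycerate kinase), Pgam1 (phosphoglycerate mutase) and Pkm (pyruvate kinase).

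Tpi1 was at 51.01 and 100.64 FPKM in WT, 90.49 and 126.43 in WT with RA, 86.80 and 116.68 in BATF-KO, 107.13 and 149.77 in BATF-KO with RA, 67.00 and 131.33 in RARα-KO, and 71.23 and 145.98 in RARα-KO with RA. Pkm, whose enzyme yields pyruvate and ATP, was at 272.73 and 429.49 FPKM in WT, 389.41 and 467.52 in WT with RA, 383.60 and 507.31 in BATF-KO, 416.44 and 572.64 in BATF-KO with RA, 273.85 and 475.68 in RARα-KO, and 277.75 and 484.33 in RARα-KO with RA. For both, the WT replicate 1 library was the lowest of the 12. Pgk1 was at 167.39 and 247.18 FPKM in WT, 239.82 and 241.66 in WT with RA, 208.67 and 283.79 in BATF-KO, 224.80 and 288.19 in BATF-KO with RA, 166.58 and 273.27 in RARα-KO, and 171.78 and 249.77 in RARα-KO with RA. Pgam1 was at 118.75 and 182.57 FPKM in WT, 167.01 and 185.45 in WT with RA, 148.41 and 186.92 in BATF-KO, 154.53 and 201.67 in BATF-KO with RA, 114.07 and 218.20 in RARα-KO, and 118.31 and 202.10 in RARα-KO with RA. For Pgk1 and Pgam1 the lowest library was RARα-KO replicate 1.

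Aldoa, which took over 99% of aldolase FPKM (lowest library 99.2%), was at 324.00 and 385.10 FPKM in WT, 402.43 and 385.35 in WT with RA, 362.25 and 470.82 in BATF-KO, 368.27 and 486.76 in BATF-KO with RA, 403.11 and 495.94 in RARα-KO, and 420.85 and 494.75 in RARα-KO with RA. Eno1, at 85.6% to 90.7% of enolase FPKM, was at 259.45 and 313.60 FPKM in WT, 384.84 and 306.17 in WT with RA, 294.59 and 400.94 in BATF-KO, 317.13 and 427.04 in BATF-KO with RA, 269.77 and 394.81 in RARα-KO, and 263.98 and 374.07 in RARα-KO with RA. For Aldoa and Eno1, WT with RA was the exception in which replicate 1 was the higher library.

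The low isoforms of this stretch, Aldoc and Eno2 (known as the brain aldolase and the neuronal enolase), were near 1 FPKM in the replicate 1 WT libraries. Eno2 was at 1.20 and 3.92 FPKM in WT, 1.15 and 3.10 in WT with RA, 3.51 and 5.23 in BATF-KO, 2.84 and 3.77 in BATF-KO with RA, 4.54 and 3.39 in RARα-KO, and 3.16 and 2.77 in RARα-KO with RA. Log2 changes of such genes, with 1 added to each FPKM, are smaller than their FPKM ratio.

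Several abundant enzymes have near-identical copies in the mouse genome, between which the authors' read assignment could split reads. Pgk1-rs7, a copy of Pgk1, was at 0 to 20.8 FPKM, and the copies of Pgk1 summed to at most 7.52% of Pgk1. For Mif, Pgam1, Eno1, Tpi1, Gpi1, Gapdh and Ldha, the copies in the table summed to at most 2.65% of the gene in any library. Adding the copies to their gene gave no call in any comparison.

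Pyruvate was read at its branch point between lactate and the mitochondria. Ldha, whose enzyme makes lactate, was at 557.94 and 733.71 FPKM in WT, 818.91 and 781.14 in WT with RA, 604.74 and 790.16 in BATF-KO, 620.56 and 879.48 in BATF-KO with RA, 491.96 and 968.21 in RARα-KO, and 542.42 and 927.60 in RARα-KO with RA. It took 96.1% to 98.5% of the FPKM of Ldha and Ldhb together, and again the RARα-KO libraries held both extremes. Slc16a1, the monocarboxylate transporter MCT1, was at 15.15 and 22.10 FPKM in WT, 22.83 and 25.07 in WT with RA, 17.86 and 18.41 in BATF-KO, 19.97 and 19.76 in BATF-KO with RA, 16.02 and 29.48 in RARα-KO, and 18.07 and 27.98 in RARα-KO with RA. Slc16a3, the lactate exporter MCT4 (GRCm38, chr11:120948484-120959000), was far lower, at 1.84 and 3.12 FPKM in WT, 0.81 and 2.23 in WT with RA, 2.76 and 4.13 in BATF-KO, 3.69 and 4.43 in BATF-KO with RA, 2.18 and 2.81 in RARα-KO, and 2.25 and 3.97 in RARα-KO with RA. With RA, all 4 knockout libraries were above both WT libraries, if narrowly for RARα-KO replicate 1.

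Pdk1, the kinase that inactivates pyruvate dehydrogenase and so keeps pyruvate out of the mitochondria, was at 76.06 and 63.82 FPKM in WT, 59.10 and 71.44 in WT with RA, 59.75 and 50.17 in BATF-KO, 66.88 and 56.83 in BATF-KO with RA, 57.60 and 49.22 in RARα-KO, and 61.38 and 58.38 in RARα-KO with RA. It took 52.6% to 69.2% of the FPKM of its 4-gene family. Without RA both WT libraries were above all 4 knockout libraries, whereas with RA the groups overlapped.

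Among the hypoxia-linked genes, Hif1a itself (GRCm38, chr12:73901324-73947554) was at 30.88 and 41.21 FPKM in WT, 41.10 and 64.19 in WT with RA, 35.91 and 31.52 in BATF-KO, 54.55 and 50.13 in BATF-KO with RA, 39.18 and 51.35 in RARα-KO, and 47.93 and 65.74 in RARα-KO with RA. The library with RA was above its same-numbered library without RA in all 6 cases. Bnip3, a mitochondrial receptor for the removal of damaged mitochondria (chr7:138890836-138909506), was at 5.65 and 6.36 FPKM in WT, 7.61 and 7.48 in WT with RA, 8.56 and 10.28 in BATF-KO, 8.94 and 9.79 in BATF-KO with RA, 6.98 and 6.45 in RARα-KO, and 6.76 and 7.32 in RARα-KO with RA, so that the 4 BATF-KO libraries were the 4 highest. Ddit4 (REDD1, an inhibitor of mTORC1, chr10:59949675-59951770) was at 26.91 and 22.19 FPKM in WT, 40.41 and 26.09 in WT with RA, 23.87 and 33.32 in BATF-KO, 29.95 and 40.31 in BATF-KO with RA, 34.86 and 17.88 in RARα-KO, and 39.68 and 21.47 in RARα-KO with RA. P4ha1, a collagen prolyl hydroxylase subunit, was the steadiest of the 32 genes at 12.75 to 15.27 FPKM. Egln3, one of the prolyl hydroxylases that mark HIF-1α for degradation, was low at 1.60 to 2.97 FPKM, and Ero1l (an oxidase of the endoplasmic reticulum) and Higd1a (a mitochondrial inner membrane protein) were at 19.60 to 32.68 and 18.60 to 31.12 FPKM.

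Replicate number was the difference that ordered the enzymes from aldolase to pyruvate kinase most. For the 9 genes from aldolase to pyruvate kinase, the mean log2(FPKM + 1) of a library was 6.24 to 6.78 in the 6 replicate 1 libraries and 6.89 to 7.18 in the 6 replicate 2 libraries, with no overlap across genotypes or RA. The lactate and pyruvate genes also did not overlap by number (4.98 to 5.26 against 5.28 to 5.44), while the uptake genes (4.48 to 4.71 against 4.57 to 4.98) and the hypoxia-linked genes did. In the balanced design, the number took a median of 63.0% of a gene's sum of squares for the aldolase to pyruvate kinase list, against 29.6% over the 32 genes and 16.5% over all genes tested. Genotype took a median of 17.3% over the 32 genes against 23.8% over all genes, and RA 6.10% against 4.62%. A further term, the number within genotype, took 19.7% against 14.5%. Of number, genotype and RA, the number was the largest for 18 of the 32 genes, compared with 38.8% of all genes. It was the largest for 8 of the 9 genes from aldolase to pyruvate kinase. Genotype was the largest for 6 of the 10 uptake genes, compared with 50.4% of all genes. Its median in the uptake genes was 26.5%, against 16.2% for the number and 22% for the number within genotype. Genotype was also the largest for 3 of the 5 lactate and pyruvate genes, though its median there was below that of the number (23.7% against 32.2%). Among the 8 hypoxia-linked genes the number was the largest for 4, genotype for 2 and RA for 2, compared with 38.8%, 50.4% and 10.8% of all genes.

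Replicate 2 was above replicate 1 in all 6 groups for 8 of 32 genes (Pgam1, Pfkl, Tpi1, Slc16a3, Pkm, Hk1, Gapdh and Pgk1), compared with 10.8% of all genes, and below it in all 6 groups for 0, compared with 11.9%. Within groups, the median log2 gap of the 32 genes, replicate 2 minus replicate 1, was 0.34 in WT, 0.11 in WT with RA, 0.21 in BATF-KO, 0.25 in BATF-KO with RA, 0.41 in RARα-KO and 0.34 in RARα-KO with RA, whereas the median over all genes stayed between -0.04 and 0.01. The summed erythroid and platelet markers moved with the number in the other direction (149 to 512 FPKM in replicate 1). Summed myeloid markers overlapped when all groups were pooled (47.8 to 156 against 29.1 to 98.2 FPKM). Within each of the 6 groups, however, their sum was also higher in replicate 1. The part of either list in the gap was not tested. Whether the number stands for a mouse, a culture day or a preparation is not stated, and it cannot be told apart from any of these. The gap enters the error of every comparison below that does not pair the libraries. Taken without its sign and averaged over the groups, it had a median of 0.35 on the log2 scale for the 32 genes. For all genes that median was 0.24, where the median level of the 32 genes is higher (27.4 against 13.6 FPKM).

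**Figure D2:**
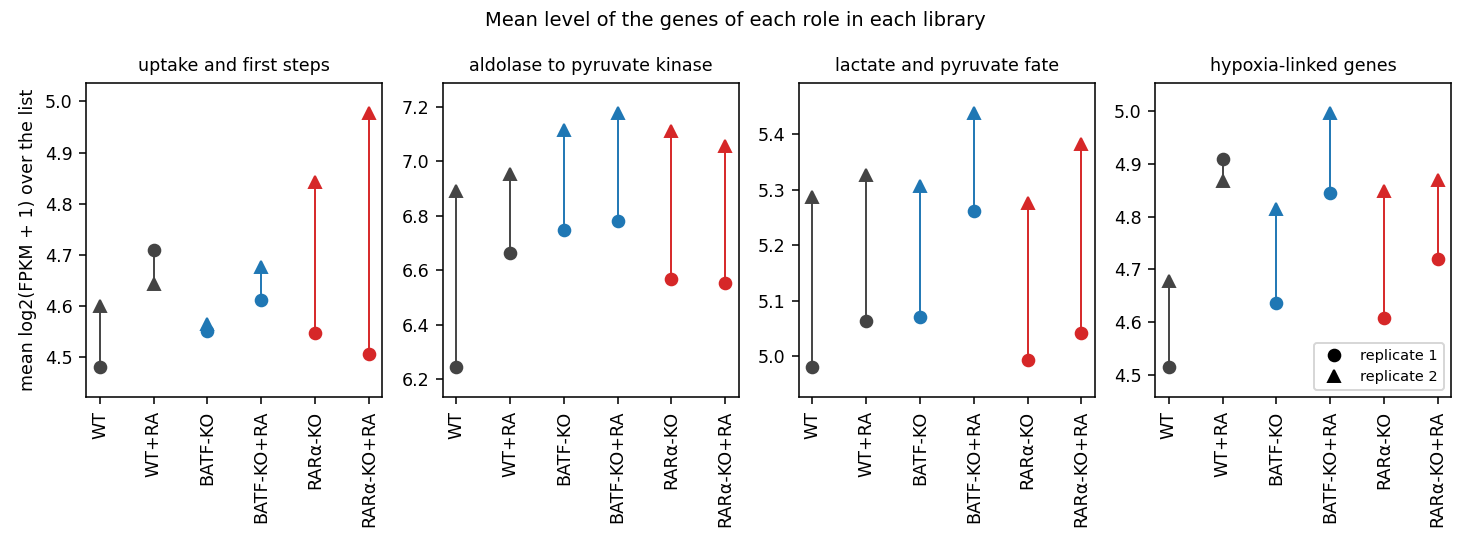
Mean log2(FPKM + 1) over the genes of each role (4 panels, each with its own axis) in each library, with replicate 1 as circles and replicate 2 as triangles joined within a group. For the genes from aldolase to pyruvate kinase, all replicate 1 libraries lie between 6.24 and 6.78 and all replicate 2 libraries between 6.89 and 7.18.

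RARα-KO cells were compared with WT cells to ask what loss of the receptor does to this program in activated CD8 T cells. Without RA, 0 of 32 genes passed an adjusted p of 0.05 (limma, Benjamini-Hochberg over 13396 genes), where 3.29% of all genes did, and 1 of 32 had an unadjusted p under 0.05 where 9.88% of all genes did. Most differences were small and positive, with 27 of 32 above 0 (49.1% of all genes) and a median log2 change of 0.17. The differences of largest size were in Eno2 (0.58 ± 0.40, standard error), Aldoc (0.50 ± 0.32) and Pfkfb3 (0.46 ± 0.22, adjusted p = 0.567). Pdk1 differed in the other direction, from 69.9 FPKM in WT to 53.4 FPKM in RARα-KO (-0.38 ± 0.16, unadjusted p = 0.0385, adjusted p = 0.442), and Pfkp was at means of 82.3 and 111.6 FPKM (0.42 ± 0.21, adjusted p = 0.596). RARα-KO libraries were all above WT for 8 of 32 genes and all below for 3, compared with 15.0% and 14.1% of all genes.

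With the replicate number as a block, still 0 of the 32 were called (4.93% of all genes). The median moved with single libraries, being 0.03 without WT replicate 1, 0.34 without WT replicate 2, 0.47 without RARα-KO replicate 1 and -0.05 without RARα-KO replicate 2. With 2 libraries a group the intervals were wide: the 95% interval of the RARα-KO to WT difference without RA was -0.68 to 0.90 for Ldha, -0.56 to 0.97 for Gapdh, -0.16 to 0.74 for Slc2a1 and -0.23 to 0.87 for Hif1a, and its half-width ran from 0.25 (P4ha1) to 1.18 (Hk2). Over the same contrast all 12 B cell markers were higher (median 2.38 on the log2 scale), and the part of admixed cells in these values was not tested.

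With RA, 0 of 32 genes were called between RARα-KO and WT (3.76% of all genes), 0 of 32 had an unadjusted p under 0.05 (12.3% of all genes), 12 of 32 were above 0 (49.0% of all genes) and the median was -0.06. It turned to 0.20 without RARα-KO with RA replicate 1, was -0.16 without RARα-KO with RA replicate 2, and was 0.01 when the libraries were rescaled to TPM. The largest differences were in Slc16a3 (a mean of 1.52 FPKM in WT against 3.11 FPKM for RARα-KO, 0.73 ± 0.33, adjusted p = 0.408), Mif (-0.42 ± 0.36) and Eno2 (0.42 ± 0.40). With the replicate number as a block, Slc16a3 alone was called, at 0.81 and 2.23 FPKM in WT and 2.25 and 3.97 FPKM in RARα-KO. In that fit the number of all genes called moved by at most 1.5 times from the 3.76% without the block. Between genotypes, same-numbered libraries with RA deviated together less (correlation of 0.0795 to 0.210) than those without RA (0.255 to 0.452). In this comparison 2 of 32 genes did not overlap in the higher direction and 3 in the lower, compared with 20.1% and 17.8% of all genes.

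BATF-KO cells were compared with WT cells in the same way. Without RA, 0 of 32 genes were called (0.0523% of all genes), 1 had an unadjusted p under 0.05 (3.89% of all genes), 24 were above 0 (50.9% of all genes) and the median was 0.17, which became -0.01 without WT replicate 1, 0.30 without WT replicate 2 and 0.03 without BATF-KO replicate 2. With the replicate number as a block, 21 genes (0.157%) were called in place of 7, and still 0 of the 32. Bnip3 had the smallest p of the 32 genes in any comparison of genotypes, with 6.01 FPKM in WT and 9.42 FPKM in BATF-KO (0.57 ± 0.14, unadjusted p = 0.00227, adjusted p = 0.568, higher in 2 of 2 libraries). The other largest differences were in Eno2 (0.69 ± 0.40) and Tpi1 (0.48 ± 0.44). All 9 genes from aldolase to pyruvate kinase were above 0 (median 0.34), where 50.9% of all genes were. None of the 9 had an unadjusted p under 0.05 in limma. The 2 groups did not overlap for 5 genes higher in BATF-KO and 2 lower, compared with 14.2% and 12.8% of all genes.

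With RA, 0 of 32 genes were called between BATF-KO and WT (0.0672% of all genes), 1 had an unadjusted p under 0.05 (4.78% of all genes), 19 were above 0 (53.4% of all genes) and the median was 0.02. That median was -0.07 without BATF-KO with RA replicate 2, 0.01 and 0.07 without WT with RA replicate 1 and replicate 2, and 0.15 without BATF-KO with RA replicate 1. Slc16a3 had the largest difference, from 1.52 FPKM in WT to 4.06 FPKM in BATF-KO (1.06 ± 0.33, unadjusted p = 0.00964, adjusted p = 0.773), followed by Eno2 (0.53 ± 0.40) and Hk2 (-0.30 ± 0.52). The WT group of this contrast holds the lowest Slc16a3 value of the series, 0.81 FPKM. The groups did not overlap for 3 genes higher in BATF-KO and 4 lower, compared with 17.5% and 13.8% of all genes.

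The knockouts were also set against each other. Without RA, 0 of 32 genes were called (3.75% of all genes) and 3 had an unadjusted p under 0.05 (12.8% of all genes), namely Pfkp, higher in RARα-KO (111.6 against 73.6 FPKM, 0.58 ± 0.21, adjusted p = 0.237), and Bnip3 and Pfkm, lower in RARα-KO (-0.43 ± 0.14, adjusted p = 0.163, and -0.41 ± 0.17, adjusted p = 0.331). Hk2 differed by 0.45 ± 0.52. With the replicate number as a block, 916 genes (6.84%) were called in place of 502, and still 0 of the 32. Higher values in RARα-KO were found for 14 of 32 (48.6% of all genes), and the libraries did not overlap for 4 in each direction (18.5% and 18.6% of all genes). With RA, 0 of 32 were called (4.16% of all genes), and Pfkm (-0.48 ± 0.17, adjusted p = 0.208) and Bnip3 (-0.37 ± 0.14, adjusted p = 0.251) again had an unadjusted p under 0.05 with the same sign, in libraries that deviate together with their same-numbered partners without RA and so are no independent repeat. Pfkp (0.45 ± 0.21) and Ldhb (-0.43 ± 0.24) were the next largest. Bnip3 did not overlap between these genotypes with or without RA. With RA, 2 of 32 had an unadjusted p under 0.05 (13.5% of all genes), 12 were above 0 (46.8%), and 3 genes were higher and 4 lower without overlap (18.7% and 21.3% of all genes).

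**Figure D3:**
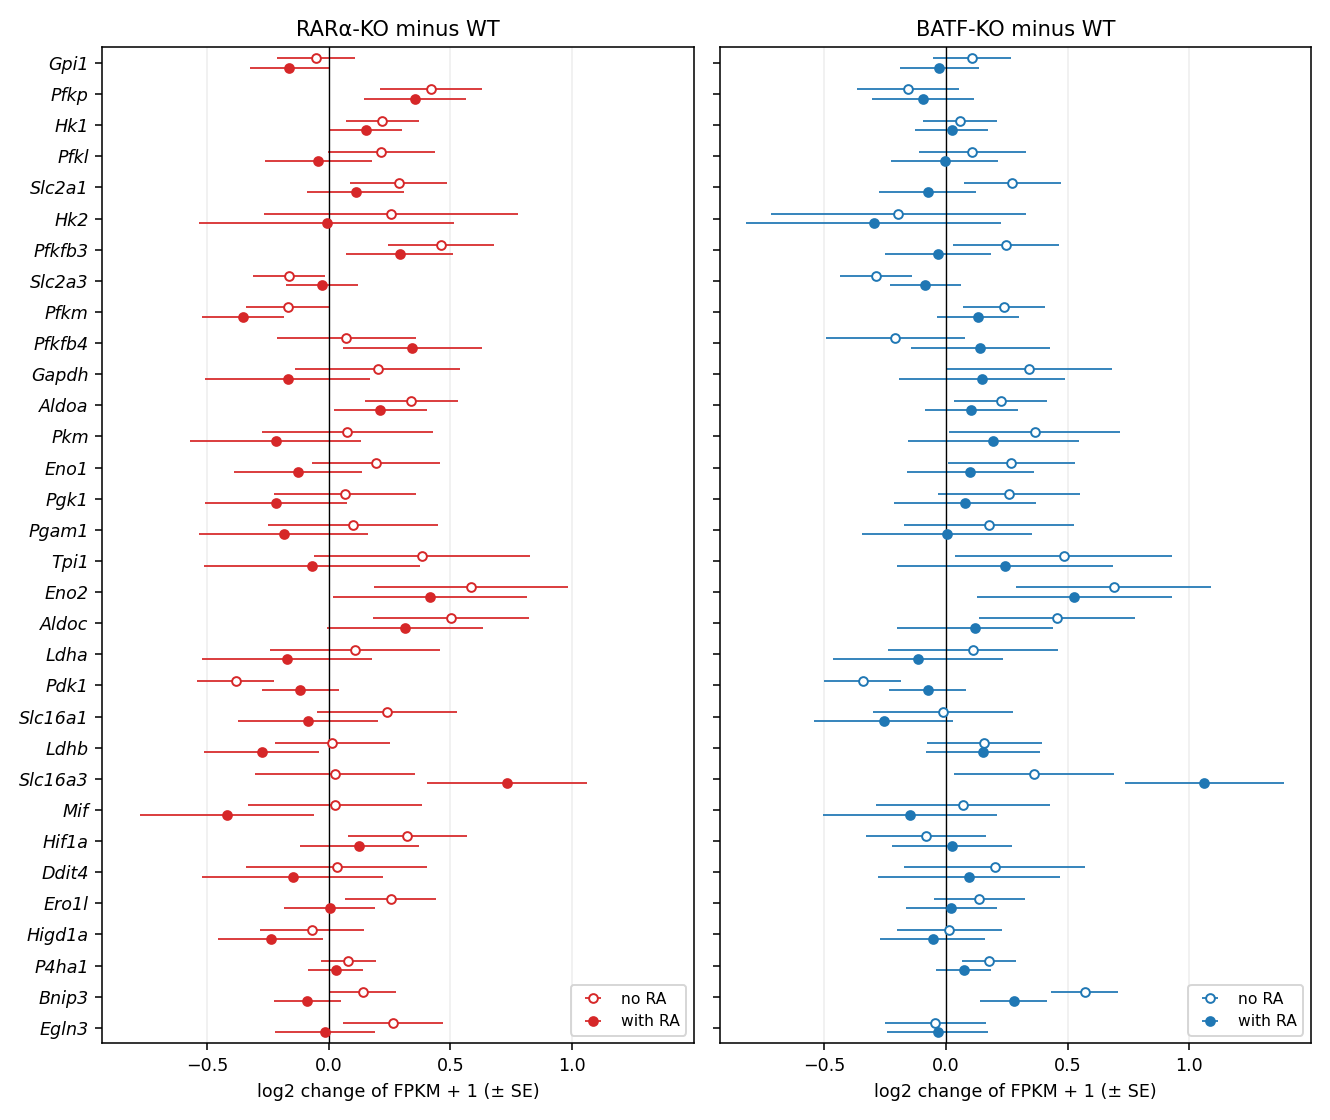
Log2 change of FPKM + 1 between each knockout and WT for the 32 genes (rows, by role), with open symbols without RA and filled symbols with RA, and bars of 1 standard error from the fit over all 12 libraries. Many bars cross 0, and the points farthest from it are Slc16a3 with RA (0.73 in RARα-KO, 1.06 in BATF-KO).

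RA was compared with no RA within each genotype to ask what the ligand does. In WT, 0 of 32 genes were called (0.0672% of all genes) and 0 had an unadjusted p under 0.05 (4.92% of all genes), while 27 of 32 were above 0 (49.8% of all genes) with a median log2 change of 0.23. In BATF-KO, 0 were called (0.157% of all genes), 1 had an unadjusted p under 0.05 (3.28% of all genes), 26 were above 0 (54.0%) and the median was 0.11. In RARα-KO, 0 were called (0.00746% of all genes), 0 had an unadjusted p under 0.05 (1.42% of all genes), 21 were above 0 (51.6%) and the median was 0.04. The largest changes were in Tpi1 (0.57 ± 0.44), Mif (0.52 ± 0.36) and Hif1a (0.51 ± 0.25) in WT, in Hif1a (0.62 ± 0.25, unadjusted p = 0.0310, adjusted p = 1), Tpi1 (0.33 ± 0.44) and Eno2 (-0.31 ± 0.40) in BATF-KO, and in Hif1a (0.32 ± 0.25), Eno2 (-0.32 ± 0.40) and Ddit4 (0.22 ± 0.37) in RARα-KO. The WT median rests in part on WT replicate 1, the library that was lowest of the 12 for 14 of 32 genes (17.2% of all genes), and was 0.06 without it. The BATF-KO median was -0.02 without BATF-KO replicate 1, 0.03 without BATF-KO with RA replicate 2, and 0.23 without either of the other BATF-KO libraries. The RARα-KO median was -0.16 without RARα-KO replicate 1 or RARα-KO with RA replicate 2, and 0.20 and 0.21 without RARα-KO with RA replicate 1 and RARα-KO replicate 2. Libraries with and without RA did not overlap for 10 genes higher and 1 lower in WT (16.6% and 17.4% of all genes), 7 and 2 in BATF-KO (17.6% and 14.1%), and 1 and 1 in RARα-KO (7.90% and 6.87%).

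Cultures without and with RA that share a genotype and a replicate number deviated together, so RA was also read within these pairs. RA was above no RA in both pairs for 23 of 32 genes in WT, 24 in BATF-KO and 12 in RARα-KO, compared with 31.8%, 36.6% and 25.3% of all genes. It was above in all 6 pairs for 8 of 32 genes, compared with 7.88% of all genes. These were Hif1a, Ddit4 and Mif of the hypoxia-linked genes, Hk2 and Pfkl of the first steps, and Tpi1, Gapdh and Pkm of the later steps. Eno2 was the reverse, lower with RA in all 6 pairs. For Hif1a, the ratio of FPKM with RA to that without was 1.22 to 1.59 over the 6 pairs, for Ddit4 1.14 to 1.50, for Tpi1 1.06 to 1.77, for Mif 1.05 to 1.74, for Gapdh 1.03 to 1.54 and for Pfkl 1.01 to 1.36, with the highest ratio of Ddit4, Tpi1, Mif, Gapdh and Pfkl in WT replicate 1 and that of Hif1a in BATF-KO replicate 2.

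**Figure D4:**
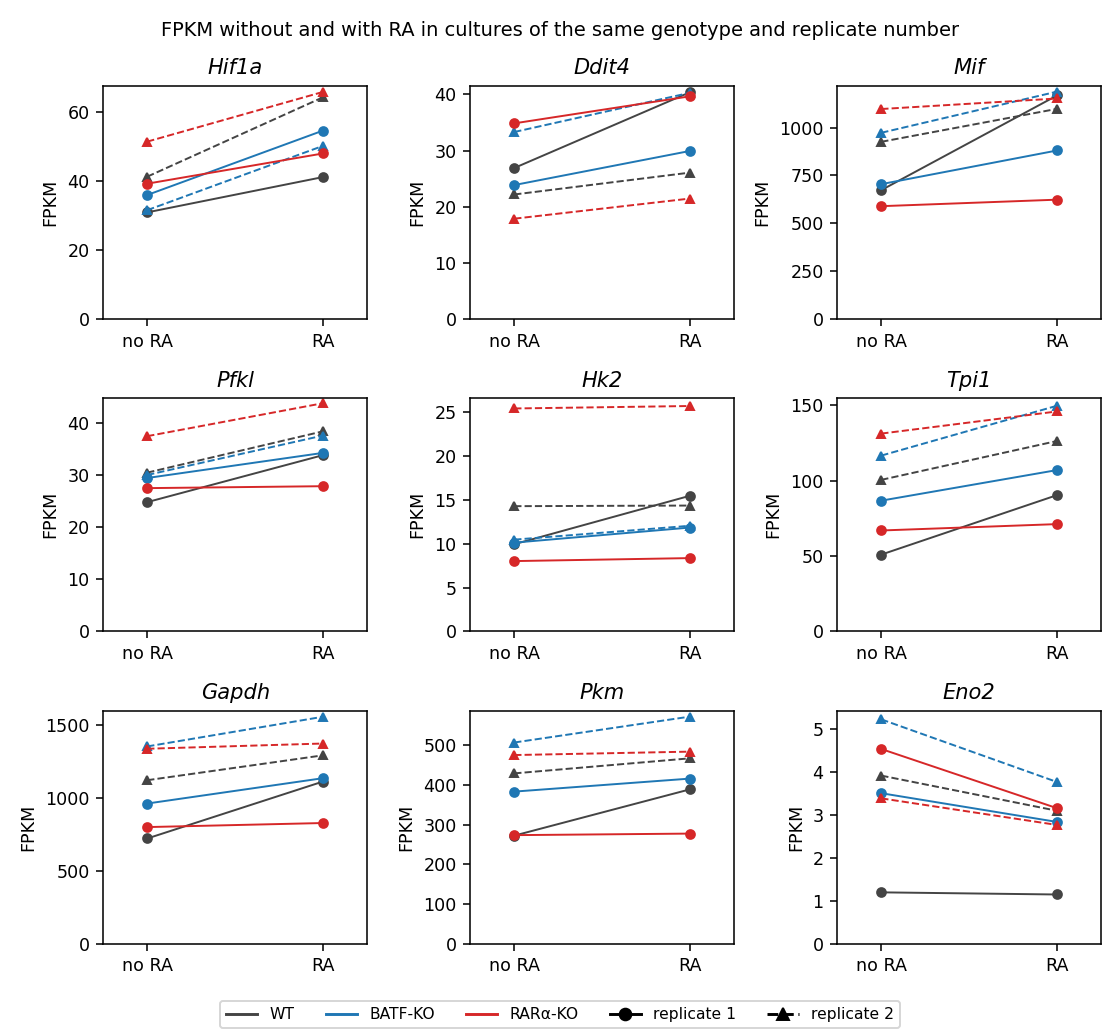
FPKM without and with RA for 9 genes, with lines joining cultures of the same genotype (colour) and replicate number (solid and dashed), and axes from 0. Hif1a is higher with RA along all 6 lines, by 1.22 to 1.59 times, and Eno2 is lower along all 6.

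With genotype and replicate number as a replicate block, the RA comparison in BATF-KO called Hif1a (0.62 ± 0.08, adjusted p = 0.0324), where 0.888% of all genes were called. In WT the same fit gave 0.51 ± 0.08 for Hif1a (adjusted p = 0.0629, 0.523% of all genes called) and in RARα-KO 0.32 ± 0.08 (adjusted p = 0.637, 0.0821% of all genes called), each higher in 2 of 2 pairs. The mean of the 3 RA effects, a comparison chosen after these values were seen, gave Hif1a a log2 change of 0.48. Without the block its adjusted p was 0.383, and 0 of 32 genes were called (0.478% of all genes), with 1 of 32 at an unadjusted p under 0.05 (6.05% of all genes) and 27 of 32 above 0 (51.7%). With the block, 3 of 32 genes were called, all higher with RA, where 3.46% of all genes were called and 1.96% in the higher direction. They were Hif1a (0.48 ± 0.05, adjusted p = 0.00579), Ddit4 (0.30 ± 0.06, adjusted p = 0.0449) and Pfkl (0.25 ± 0.05, adjusted p = 0.0455). Tpi1 (0.34 ± 0.07, adjusted p = 0.0522), Mif (0.30 ± 0.07, adjusted p = 0.0802), Gapdh (0.23 ± 0.06, adjusted p = 0.0969) and Eno2 (-0.26 ± 0.07, adjusted p = 0.109) did not pass.

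These calls depended on single pairs. Leaving out 1 pair at a time kept the Hif1a change at 0.45 to 0.52, and its adjusted p was 0.0114 and 0.0125 without WT pair 1 and WT pair 2, 0.0495 without BATF-KO pair 1, 0.0536 without BATF-KO pair 2, and 0.0526 and 0.0600 without RARα-KO pair 1 and pair 2. Ddit4 and Pfkl passed only without WT pair 2 (adjusted p = 0.0167 and 0.0355), and their other values ran to 0.198 and 0.227. Without WT pair 2, 13 of 32 genes were called, and without WT pair 1, 3 were (Hif1a, Tpi1 and Mif), beside 1711 and 271 of 13396 genes.

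**Figure D5:**
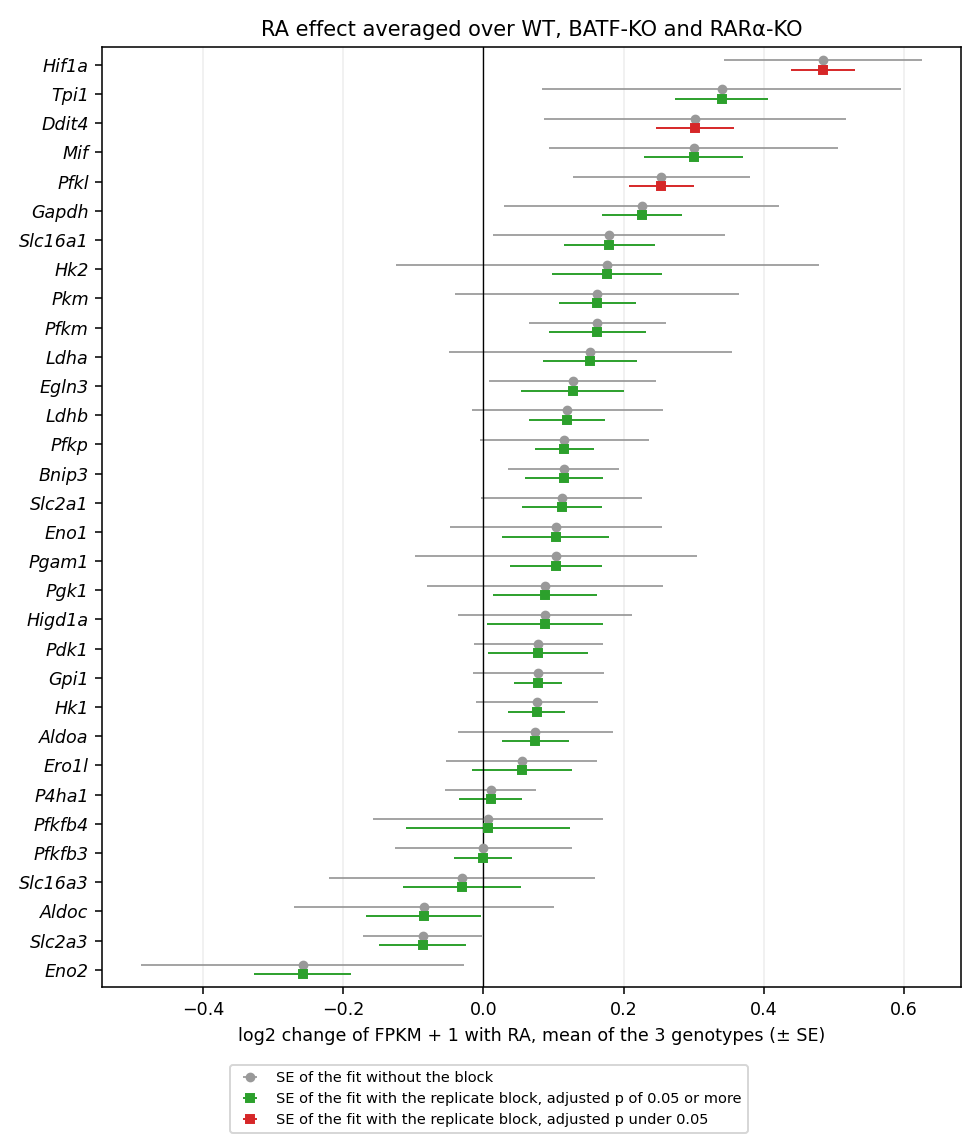
Log2 change of FPKM + 1 with RA, averaged over WT, BATF-KO and RARα-KO, for the 32 genes in order of size. Grey points carry the standard error of the fit without the block and squares that of the fit with the replicate block, with Hif1a (0.48), Ddit4 (0.30) and Pfkl (0.25), the 3 called in the latter, in red.

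Whether the RA effect differed between genotypes was tested as an interaction, first without the block. For RARα-KO minus WT, 0 of 32 genes and 0 of 13396 genes were called (0% of all genes), 0 of 32 had an unadjusted p under 0.05 (1.37% of all genes), and 4 of 32 differences were above 0 (50.6% of all genes) with a median of -0.19, which became -0.01 without WT replicate 1, -0.40 without WT replicate 2 and 0.01 without RARα-KO replicate 2. For BATF-KO minus WT, 0 of 32 and 0 of 13396 were called (0% of all genes), 0 of 32 had an unadjusted p under 0.05 (1.12% of all genes), and 7 of 32 were above 0 (51.0% of all genes) with a median of -0.12, which became 0.04 without WT replicate 1. The largest differences for RARα-KO were in Slc16a3 (0.71 ± 0.46), Tpi1 (-0.45 ± 0.63) and Mif (-0.44 ± 0.50). Those for BATF-KO were in Slc16a3 (0.70 ± 0.46), Pfkfb4 (0.35 ± 0.40) and Slc2a1 (-0.35 ± 0.28). For Hif1a the 95% interval of the difference was -0.98 to 0.58 for RARα-KO and -0.67 to 0.89 for BATF-KO, so a smaller or a larger RA effect in either knockout was within the error of this fit. With the replicate block within genotype, again 0 of 32 and 0 of 13396 genes were called, and the Hif1a difference was -0.20 ± 0.11 (adjusted p = 0.542) and 0.11 ± 0.11 (adjusted p = 0.894). In that fit 4 of 32 genes had an unadjusted p under 0.05 for RARα-KO (Slc16a3, Tpi1, Mif and Gapdh), compared with 8.73% of all genes, and 3 for BATF-KO (Slc16a3, Pfkfb3 and Slc2a1), compared with 5.21%. Both interactions share the 4 WT libraries, as the comparisons of either knockout with WT share 2.

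The wider pathway was read from further lists. Of 12 other glycolytic isoforms tested, 14 genes of pyruvate entry into the mitochondria, 10 genes of the pentose phosphate pathway, 10 genes of serine synthesis and redox shuttles and 8 regulators of HIF, 0 genes were called by limma in any comparison without the block. Between RARα-KO and WT without RA, 1 of the 12 isoforms and 0 of the other 4 lists had an unadjusted p under 0.05. Their median log2 changes between RARα-KO and WT without RA were -0.08, -0.03, 0.17, 0.12 and -0.02. Of 30 other hypoxia targets, 1 was called without the block, a share like that of all genes in these comparisons (3.29% between RARα-KO and WT without RA, 3.76% with RA). Bhlhe40 (a basic helix-loop-helix repressor induced by hypoxia and by T cell activation) was higher in RARα-KO than in WT, at 17.93 against 5.78 FPKM without RA (1.54 ± 0.28, adjusted p = 0.0164) and 15.16 against 5.29 FPKM with RA (1.37 ± 0.28, adjusted p = 0.0273), and likewise higher than in BATF-KO (1.47 and 1.28, adjusted p = 0.0199 and 0.0374). The B cell and NK markers given above moved with these RARα-KO values, and their part was not tested.

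Of 25 upstream regulators of glucose metabolism, 1 was called without the block, in the mean RA effect, where 0.478% of all genes were called. Arrdc4, an arrestin-domain protein known to lower glucose uptake, rose with RA in the mean over genotypes (2.13 ± 0.21, adjusted p = 0.00205), and with the block also in each genotype (2.38 in WT, 2.28 in BATF-KO and 1.73 in RARα-KO, adjusted p = 0.00414, 0.00452 and 0.0324). Its mean in WT was 1.95 FPKM without RA and 14.2 FPKM with RA. The mean over genotypes with the block, a comparison chosen after values were seen, called 3.46% of all genes. Of the 25 regulators, Myc was also higher with RA there (0.42 ± 0.07, adjusted p = 0.0346), in 6 of 6 pairs. Of the 30 other hypoxia targets, Ndrg1, known as stress-responsive, was lower (-0.48 ± 0.06, adjusted p = 0.0107), in 6 of 6 pairs. Whether the Myc and Ndrg1 calls depend on single pairs was not tested.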

How the data were processed

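Bulk RNA sequencing was performed on 12 mouse CD8 T cell libraries, 2 in each of 6 groups, with paired-end reads of 150 bp. The authors aligned the reads to GRCm38 (ENSEMBL) with STAR 2.7.8a, estimated gene levels with RSEM 1.3.3 and deposited FPKM to 2 decimals, with no scaling between libraries stated. The labels name both a total RNA kit and poly-A enrichment, and a 96-well format where the study's methods give another plate, and neither was settled. No counts were used, so absolute depth and counting error are unknown; low-value steps of 157 genes gave relative depths of 0.967 to 1.26. The number of value columns left out because no sample matched them is 0. The 4 transgene entries were not tested. Positions and synonyms came from RefSeq (GRCm38.p6), with 32 of 32 genes matched, Ero1l as Ero1a.

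Genes with at least 1 FPKM in at least 2 libraries (13396) were analysed on the log2(FPKM + 1) scale. A limma 3.58.1 model in R 4.3.3 held 1 mean for each of the 6 groups, took all 12 libraries and let the variance follow the mean (6 residual and 3.40 prior degrees of freedom). Its tests were two-sided, with Benjamini-Hochberg adjustment within each comparison, and an adjusted p under 0.05 was a call. The ± after a log2 change is its standard error, and 95% intervals use the same degrees of freedom. The method was tested on simulated data. Figures were drawn with matplotlib 3.10.9, and tables handled with pandas 2.3.3, numpy 2.4.6 and scipy 1.17.1 under Python 3.11.15.

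Pairing by replicate number was checked as the correlation across genes of deviations from group means. It was 0.398, 0.427 and 0.578 between cultures without and with RA in BATF-KO, WT and RARα-KO, so these were taken as pairs (block fit with 3 residual degrees of freedom). Between genotypes it was 0.255 to 0.452 without RA and 0.0795 to 0.210 with RA.

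The 32 genes and the further lists were chosen with earlier results of these data known. All 32 genes are accounted for, with values in every library for the isoform that carries most of a step and the 3 largest changes of each comparison. Per-library values of Hk2, Eno2, Slc16a3, Hif1a, Bnip3 and Ddit4 were added after their values were seen. From the further pathway lists, genes called in any comparison are named, and cell type markers are given as lists only. Alternatives were 2 other pseudocounts, 2 other filters, TPM and median-ratio scaling, no trend, array weights, fewer groups, replicate blocks, leaving out each library, and near copies added.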

Additional observations from a re-analysis of the deposited data

Results flagged for a closer look

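The transgene entry for Cre recombinase, outside the genes tested, was read at 824 FPKM in RARα-KO replicate 1, 681 FPKM in RARα-KO with RA replicate 1, 79.3 FPKM in RARα-KO replicate 2 and 86.7 FPKM in RARα-KO with RA replicate 2, against 0.13 FPKM or less in the other 8 libraries. No group has enough libraries for a test of outlying samples, and no RA effect on the 32 genes differed between genotypes by its own test.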

How the results depend on the processing

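With 2 libraries a group and unknown depth, a member had to differ by about 0.54 on the log2 scale for its 95% interval to leave out 0 (median half-width over the 32 genes). Of 8964 values of single members under the alternatives, 8959 stayed uncalled, as all members were in the main fit. A further 5 newly passed, and 0 of these reversed. The direction of uncalled values was not scored, and it could turn. For Hk2, the RARα-KO to WT change without RA ran from -0.52 to 1.03. The 5 are the Hif1a, Ddit4 and Pfkl calls in the fits with a replicate block within genotype and Slc16a3 in RARα-KO against WT with RA (adjusted p = 0.0498) with the replicate number as a block. The members' share of FPKM was 0.753% to 1.22% without mitochondrial, ribosomal protein and receptor segment genes. Medians of RARα-KO against BATF-KO turned to 0.0064 without RA and 0.0015 with RA after rescaling to TPM.

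Genes called moved by more than 1.5 times as follows. A pseudocount of 0.1 gave 16 for RA in WT, 0 for RA in RARα-KO and 2 for the RA effect in BATF-KO minus WT. No filter gave 18 for BATF-KO against WT with RA, 21 and 12 for RA in WT and RARα-KO, and 16 and 14 for the RA effects in RARα-KO and BATF-KO minus WT. A mean of at least 5 FPKM gave 200 and 211 for RARα-KO against WT without and with RA, 4 and 4 for BATF-KO against WT, 235 and 245 for RARα-KO against BATF-KO, and 0 for RA in RARα-KO. No variance trend gave 15 for BATF-KO against WT with RA, 2 for RA in RARα-KO, and 1 and 1 for the RA effects. Array weights gave 50 for RA in BATF-KO. Only the groups compared, with fewer libraries, gave 80 and 320, 0 and 1, and 256 and 306 for the genotype comparisons in that order, and 0, 1 and 0 for RA in WT, BATF-KO and RARα-KO. The cause of the other moves was not tested.

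The replicate block over all groups gave 21 and 21 genes for BATF-KO against WT, 916 and 1000 for RARα-KO against BATF-KO, 32, 48 and 3 for RA in WT, BATF-KO and RARα-KO, 136 for the mean RA effect, and 1 member called for RARα-KO against WT with RA. The replicate block within genotype gave 70, 119 and 11 genes for RA, 464 for the mean RA effect, and 1 and 3 members called for RA in BATF-KO and the mean. It changed no other call of a member.

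Leaving out each library in turn called 0 members in every comparison. The genes called were 247 to 423 and 246 to 499 for RARα-KO against WT without and with RA, 1 to 5 and 4 to 8 for BATF-KO against WT, 176 to 480 and 185 to 565 for RARα-KO against BATF-KO, 4 to 16, 3 to 28 and 0 to 1 for RA in WT, BATF-KO and RARα-KO, and 37 to 56 for the mean RA effect.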
